A study of Mus musculus with 8 samples.

Results

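Sterol and fatty acid synthesis was examined through 31 genes that act in the pathways controlled by the sterol regulatory element binding proteins (SREBPs). Of these, 18 belong to sterol synthesis, 6 to fatty acid synthesis and 7 to regulation, sterol carriage or receptor turnover. The members were taken by gene symbol from the annotation of the array, and 28 of the 31 were measured among 22180 genes: 16 of sterol synthesis, 5 of fatty acid synthesis and all 7 regulators. Idi1 and Scd2 lay on probe sets that name several genes, and Acat2 had no probe set naming it alone, so these were not analysed here. Each gene was represented by its brightest probe set on average, and Scap was the 1 member with a second probe set.

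The study compared epidermal RNA of newborn C57BL/6J mice at postnatal day 0 on 8 expression arrays. The K320E-TwinkleEpi mice (4 arrays, K320E below) expressed a mutant of Twinkle, the helicase of mitochondrial DNA replication, in the epidermis. This was achieved by use of the K14 promoter, which is active in basal keratinocytes and in the hair follicle. The controls (4 arrays) were newborns labelled R26-K320E-TwinkleloxP/+, so both genotypes carry a K320E-Twinkle allele by name. Whether the arrays of a group came from separate animals or litters is not stated in the labels, and p-values therefore rest on a spread among samples that may be technical.

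Cells make cholesterol from acetyl-CoA through mevalonate, farnesyl pyrophosphate, squalene and lanosterol, and make fatty acids from malonyl-CoA. SREBPs are transcription factors held in the membrane of the endoplasmic reticulum: Scap escorts them to the Golgi apparatus for cleavage when sterols are low, and Insig proteins retain the complex when sterols are plentiful. In the epidermis, keratinocytes use the cholesterol and fatty acids they make, together with ceramides, to build the lipid layers of the skin barrier.

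Values are log2 intensities, and each fold change is the K320E mean less the control mean of these log2 values. Twnk, which encodes Twinkle, was the check of the labels: it averaged 9.05 ± 0.18 in K320E, against 6.73 ± 0.18 in controls (SD, n = 4 each), and no array overlapped between the genotypes. The keratins Krt10 (12.91 ± 0.03 in K320E, 12.91 ± 0.05 in controls) and Krt1 (12.82 ± 0.08 in K320E, 12.75 ± 0.01 in controls; both as SD, n = 4) were abundant in both genotypes. One array stood apart for the lipid genes. K320E replicate 1 was the highest of the 8 arrays for 19 of the 28 members, against 19.4% of all genes and 31.9% of the third of genes with the highest mean level, which holds 27 of the 28 members. The upper quartile of its values was 7.54, against 7.47 to 7.51 in the other K320E arrays and 7.47 to 7.49 in the control arrays. Y-linked genes were high in K320E replicate 3 (mean 8.64) and control replicate 2 (mean 9.05) and between 4.75 and 4.82 in the other arrays.

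Within sterol synthesis, 1 enzyme passed the test: squalene epoxidase (Sqle) rose in K320E. The other 15 sterol genes did not pass it, 13 of them with positive fold changes. Over all genes, limma called 0.879% as differing between the genotypes at an adjusted p under 0.05: 0.685% as higher and 0.194% as lower in K320E. Of the 28 members, 1 was called higher (Sqle) and 0 were called lower. At an unadjusted p under 0.05, 9 members were higher and 2 lower, where the shares over all genes were 8.77% and 6.06% (14.8% in either direction). In the third with the highest levels, 1242 of 7394 genes were higher and 632 lower at this threshold. The groups did not overlap for 6 members that were higher in K320E and 2 that were lower, against 5.5% and 3.75% of all genes (9.25% in either direction) and 10.8% and 4.95% of the third with the highest levels. Of the 6, 5 were sterol enzymes: Fdps, Fdft1, Sqle, Lss and Msmo1.

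**Figure D1:**
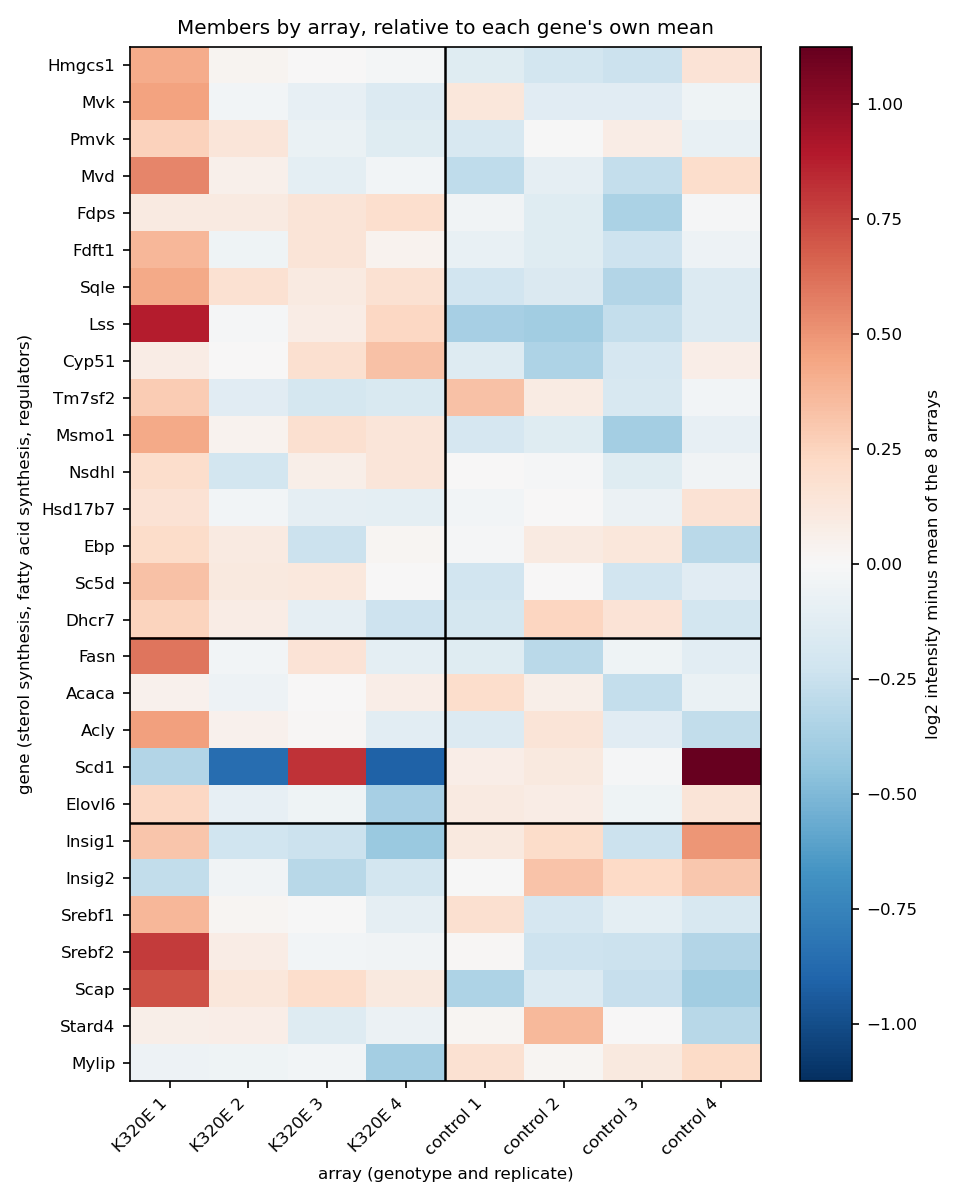
Each row is a member and each column an array, with K320E replicates 1 to 4 on the left and control replicates 1 to 4 on the right; colour gives the log2 intensity minus the gene's mean over the 8 arrays, and lines separate sterol synthesis, fatty acid synthesis and regulators. K320E replicate 1 is the highest array for 13 of the 16 sterol genes, and Scd1 spans the widest range of colours.

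Sqle encodes squalene epoxidase, which oxidises squalene at the entry to the sterol branch. It measured 10.70, 10.45, 10.37 and 10.45 in K320E replicates 1 to 4, against 10.06, 10.12, 9.94 and 10.12 in control replicates 1 to 4. Every K320E array lay above every control array, with a gap smaller than the range within K320E. Sqle rose by 0.43 (SE 0.08, limma adjusted p = 0.0495), which is 1.35-fold. The call lay at the threshold and was lost whichever array was left out (adjusted p from 0.063 to 0.115 over 8 reduced fits), while the fold change stayed between 0.36 and 0.47.

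The enzymes next to squalene epoxidase had positive fold changes that did not pass the adjusted threshold. Lss, lanosterol synthase, closes the epoxide into the first sterol. It measured 8.95, 8.05, 8.15 and 8.30 in K320E and 7.69, 7.68, 7.80 and 7.91 in controls (replicates 1 to 4 of each). K320E replicate 1 lay well above the other K320E arrays, and the groups did not overlap. The fold change of Lss was 0.59 (SE 0.18, limma adjusted p = 0.169) with all arrays and 0.40 without that array.

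Msmo1, the methylsterol oxidase that acts after Cyp51 in removing methyl groups from the sterol, measured 8.90, 8.51, 8.65 and 8.60 in K320E and 8.28, 8.34, 8.09 and 8.37 in controls. Its fold change was 0.39 (SE 0.10, limma adjusted p = 0.105), with no overlap between the groups. Cyp51, the lanosterol demethylase of the cytochrome P450 family, had 9.44, 9.36, 9.53 and 9.68 in K320E against 9.21, 9.01, 9.16 and 9.43 in controls. Here control replicate 4 lay within the K320E range, and the fold change was 0.30 (SE 0.10, limma adjusted p = 0.210). Sc5d, a desaturase that acts late in the pathway, had 10.74, 10.51, 10.52 and 10.40 in K320E against 10.19, 10.41, 10.19 and 10.27 in controls. The lowest K320E array and the highest control array of Sc5d were level at 10.40 and 10.41, and the fold change was 0.28 (SE 0.08, limma adjusted p = 0.172).

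The 6 enzymes measured up to squalene had fold changes of 0.09 to 0.27, none past the threshold, and the groups did not overlap for 2 of them. Fdps, which makes farnesyl pyrophosphate, measured 9.95, 9.94, 9.98 and 10.03 in K320E and 9.81, 9.71, 9.48 and 9.83 in controls. The K320E arrays were tightly grouped (SD 0.04) and the controls less so (SD 0.16), and the fold change was 0.27 (SE 0.08, limma adjusted p = 0.166). Fdft1, squalene synthase, had 11.46, 11.03, 11.23 and 11.12 in K320E against 10.99, 10.95, 10.85 and 11.02 in controls. The gap between the groups was narrow, with K320E replicate 2 just above control replicate 4, and the fold change was 0.25 (SE 0.09, limma adjusted p = 0.239).

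Hmgcs1, the synthase that makes HMG-CoA, had 10.98, 10.59, 10.57 and 10.54 in K320E against 10.42, 10.36, 10.32 and 10.71 in controls. Control replicate 4 lay above 3 of the 4 K320E arrays, and the fold change of 0.22 (SE 0.12) was 0.11 without K320E replicate 1. Mvk and Pmvk phosphorylate mevalonate in turn, and Mvd decarboxylates the product. Their fold changes were 0.09, 0.09 and 0.23, with SEs of 0.13, 0.10 and 0.16 and overlapping groups. Mvk measured 8.15, 7.67, 7.61 and 7.55 in K320E against 7.83, 7.58, 7.57 and 7.65 in controls. Without K320E replicate 1, the fold change of Mvk was -0.05 and that of Mvd 0.08.

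The remaining late enzymes gave fold changes close to 0, and their groups overlapped. Nsdhl and Hsd17b7, which act in the same demethylation as Msmo1, had fold changes of 0.10 (SE 0.09) and -0.04 (SE 0.08). Tm7sf2, a sterol reductase, measured 7.87, 7.45, 7.38 and 7.41 in K320E against 7.91, 7.67, 7.40 and 7.55 in controls, a fold change of -0.11 (SE 0.14). Ebp, a sterol isomerase, had a fold change of 0.04 (SE 0.12). Dhcr7, the reductase of the last step to cholesterol, had 8.23, 8.07, 7.88 and 7.75 in K320E against 7.78, 8.23, 8.13 and 7.78 in controls. The arrays of both genotypes were interleaved for Dhcr7, and its fold change was 0.00 (SE 0.13), or -0.026 after quantile normalisation. The limma adjusted p of these 5 genes lay between 0.694 and 0.995.

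Over the 16 sterol genes the median fold change was 0.22, with 14 positive, beside a median of 0.00 and 49.8% positive over all genes and of 0.03 and 56.8% over the third with the highest levels. The 6 enzymes up to squalene had a median of 0.22 and the 10 from squalene on one of 0.19. Without K320E replicate 1 the median of the 16 was 0.10, and 11 were positive. The mean level of the 16 genes was 9.40 in that array, against 9.07 to 9.09 in the other K320E arrays and 8.90 to 9.02 in the controls. All 4 K320E means lay above all 4 control means; a mean chosen with these results known was given no test. The mean level of the keratinocyte markers was also higher in all 4 K320E arrays, at 11.91 to 12.00 against 11.65 to 11.81 in controls. Of the 6 measured of 7, 4 had higher and 2 lower means in K320E. Among them 1 was called (Dsg3, a desmosomal cadherin, named after its values were seen). The 2 most highly expressed, Krt10 and Krt1, had fold changes of -0.008 and 0.07, and neither was called. The part of the keratinocyte markers in the result was not tested.

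**Figure D2:**
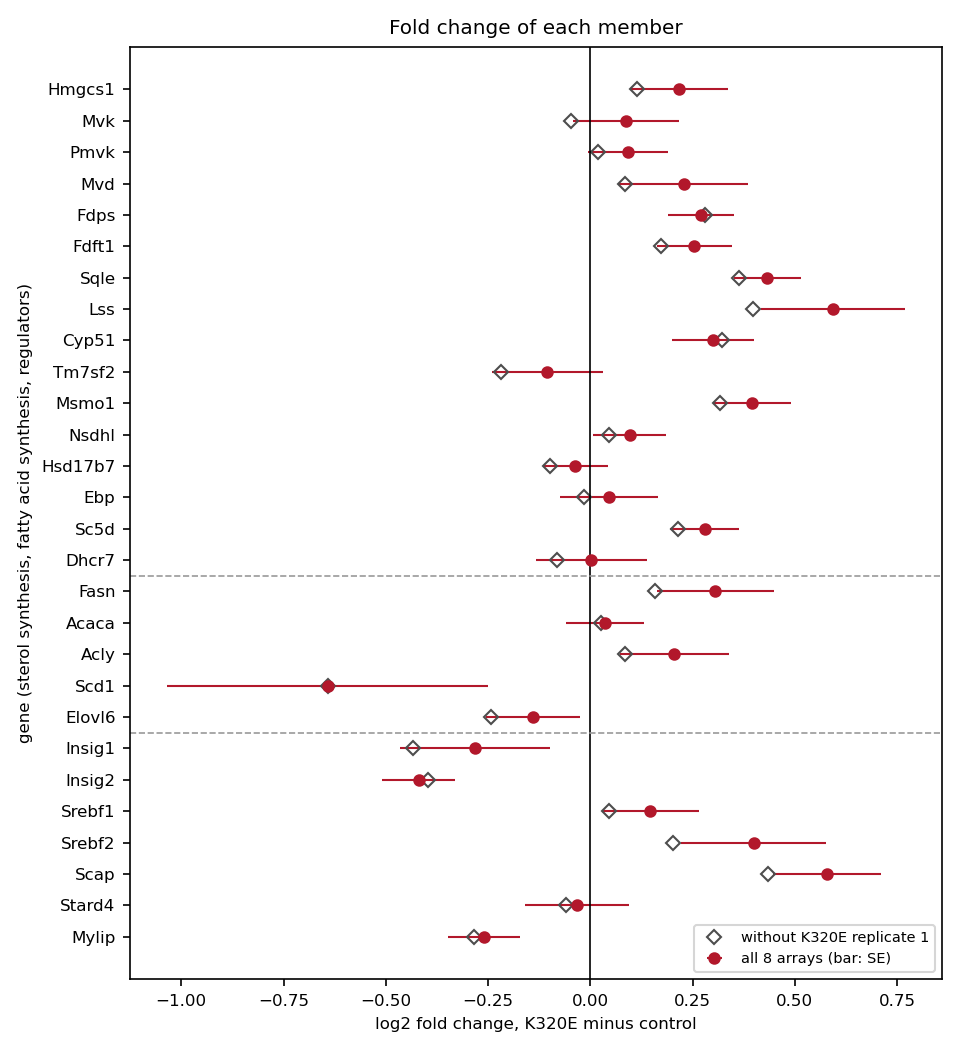
Points are the log2 fold change (K320E minus control) of each member with all 8 arrays, bars the moderated SE, and open diamonds the value without K320E replicate 1; dashed lines separate sterol synthesis, fatty acid synthesis and regulators. Most sterol genes lie right of 0 and move towards it without that array, while Fdps, Cyp51, Insig2 and Scd1 hardly move.

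Promoter windows of 250 bases before to 50 after the start were available from RefSeq (GRCm38.p6) for 25 of the 31 members; those of Sqle, Fdps, Fdft1, Scd1, Scd2 and Stard4 were not shown. Both strands were searched for letters that SREBPs and their partners are known to bind. The core of the sterol regulatory element, CACNCCAC, stood in the windows of 3 of the 25 genes (Hmgcs1, Insig1 and Acat2), beside 7.26% of protein-coding genes. Its longer form TCACNCCAC, which contains the core, stood in Hmgcs1 alone, beside 1.41% of protein-coding genes. The box of the partner factor NF-Y, CCAAT, stood in 21 of the 25, or 84.0%, beside 42.3% of protein-coding genes. The box of the partner Sp1, GGGCGG, stood in 21, beside 49.2%, and the E-box CACGTG in 5, or 20.0%, beside 8.91%. These counts are descriptions and the windows differ in base composition.

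Windows of 3 sterol enzymes are shown 5′ to 3′ on the strand of the gene, because Hmgcs1 holds the element core and Lss and Msmo1 had the highest fold changes of the sterol genes with a window. Capitals mark CACNCCAC and CCAAT on either strand. They lie at chr13:119690101-119690400 (plus strand), chr10:76531355-76531654 (plus strand) and chr8:64733529-64733828 (minus strand). In Hmgcs1 the core begins 136 bases before the start, among 4 CCAAT boxes. Lss holds 1 CCAAT box and Msmo1 holds 3, and neither window has the core.
Hmgcs1: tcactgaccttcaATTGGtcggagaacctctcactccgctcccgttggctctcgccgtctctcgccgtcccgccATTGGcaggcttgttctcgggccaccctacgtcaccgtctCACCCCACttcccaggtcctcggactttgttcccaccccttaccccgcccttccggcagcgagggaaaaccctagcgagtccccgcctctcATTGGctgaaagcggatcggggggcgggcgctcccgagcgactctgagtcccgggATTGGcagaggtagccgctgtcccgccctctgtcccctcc
Lss: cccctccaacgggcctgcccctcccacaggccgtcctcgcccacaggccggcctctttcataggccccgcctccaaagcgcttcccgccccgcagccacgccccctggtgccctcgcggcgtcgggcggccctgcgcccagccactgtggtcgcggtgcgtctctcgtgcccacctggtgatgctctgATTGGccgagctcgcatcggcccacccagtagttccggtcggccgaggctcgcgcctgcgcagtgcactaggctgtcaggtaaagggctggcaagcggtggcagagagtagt
Msmo1: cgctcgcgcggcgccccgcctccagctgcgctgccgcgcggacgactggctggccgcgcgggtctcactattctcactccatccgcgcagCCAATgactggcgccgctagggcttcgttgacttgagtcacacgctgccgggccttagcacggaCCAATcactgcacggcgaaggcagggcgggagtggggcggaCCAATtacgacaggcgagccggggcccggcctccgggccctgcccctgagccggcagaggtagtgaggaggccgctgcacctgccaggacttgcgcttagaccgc

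Fatty acid synthesis did not show a common direction: of the 5 genes measured, 3 had positive and 2 negative fold changes, 0 were called, and the groups overlapped for all 5. Fasn, the fatty acid synthase, measured 8.29, 7.66, 7.84 and 7.58 in K320E and 7.55, 7.38, 7.64 and 7.57 in controls. K320E replicate 1 lay above the rest, and the fold change of 0.31 (SE 0.14, limma adjusted p = 0.367) was 0.16 without it. Acly, which makes cytosolic acetyl-CoA from citrate, had 9.45, 9.04, 9.01 and 8.87 in K320E against 8.83, 9.14, 8.86 and 8.71 in controls. Its fold change was 0.20 (SE 0.13), and 0.08 without that array. Acaca, the acetyl-CoA carboxylase that makes malonyl-CoA, had 8.40, 8.30, 8.37 and 8.43 in K320E against 8.56, 8.43, 8.09 and 8.29 in controls. The K320E arrays of Acaca lay within the range of the controls, with a fold change of 0.04 (SE 0.09) that was -0.0060 after quantile normalisation.

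The enzymes that modify finished fatty acids had negative fold changes. Elovl6, an elongase of long-chain fatty acids, had 10.75, 10.41, 10.47 and 10.14 in K320E against 10.61, 10.59, 10.46 and 10.65 in controls, a fold change of -0.14 (SE 0.12). The 4 arrays of each genotype overlapped, with K320E replicate 4 the lowest of all. Scd1, the stearoyl-CoA desaturase that is abundant in sebaceous glands, measured 8.23, 7.70, 9.36 and 7.64 in K320E and 8.62, 8.66, 8.54 and 9.68 in controls. It was the most variable member: K320E replicate 3 and control replicate 4 stood far above the other arrays of their groups. Its fold change was -0.64 (SE 0.39, limma adjusted p = 0.508), and ran from -1.02 without K320E replicate 3 to -0.37 without control replicate 4. With covariates added after the data were seen, it was -0.04 with the sebocyte markers and -0.25 with the hair shaft markers. The sebocyte means were 6.28 to 6.47 in K320E and 6.61 to 7.45 in controls. Those of the hair shaft markers were 6.22 to 6.48 in K320E and 6.51 to 7.85 in controls. Neither list overlapped between the genotypes, so these fits cannot tell the markers apart from genotype.

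Scd1 stood out in K320E replicate 3 and control replicate 4, and each was highest for a different list of lipid-making cell markers. These arrays were also the highest for marker lists of other cells. K320E replicate 3 was highest for skeletal muscle (mean 8.07), fibroblast (8.01) and endothelial (6.12) markers. Control replicate 4 was highest for hair shaft (7.85) and melanocyte (9.47) markers. Sebocyte markers averaged 6.34 in K320E replicate 3 and 7.45 in control replicate 4, and adipocyte markers 7.29 and 6.50. All 10 sebocyte markers were measured, 9 of them with lower means in K320E and 0 called. Their summed level was 9.68 to 9.91 in K320E arrays and 10.17 to 11.07 in controls on the log2 scale, with control replicate 4 the highest. Among them Fa2h, a fatty acid hydroxylase, averaged 7.28 ± 0.24 in K320E and 8.31 ± 0.59 in controls, while Awat1, a wax synthase, averaged 7.01 ± 0.40 in K320E and 7.46 ± 0.47 in the control arrays (SD, n = 4 each). Of the 8 adipocyte markers 7 were measured, 5 with higher means in K320E, and their summed level was 10.14 to 12.41 in K320E and 9.75 to 10.37 in controls, with K320E replicate 3 the highest. Their mean log2 level was 6.30 to 6.56 in the other K320E arrays and 6.31 to 6.50 in controls, which overlap. Retn, an adipokine, averaged 6.28 in K320E and 6.38 in controls. Fabp4, a fatty acid carrier of adipocytes, averaged 10.84 ± 1.08 in K320E and 9.61 ± 0.45 in the control arrays (SD, n = 4 each). The part of the sebocyte and adipocyte markers in the result was not tested, and in bulk tissue fewer cells of a type cannot be told apart from less RNA per cell.

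**Figure D3:**
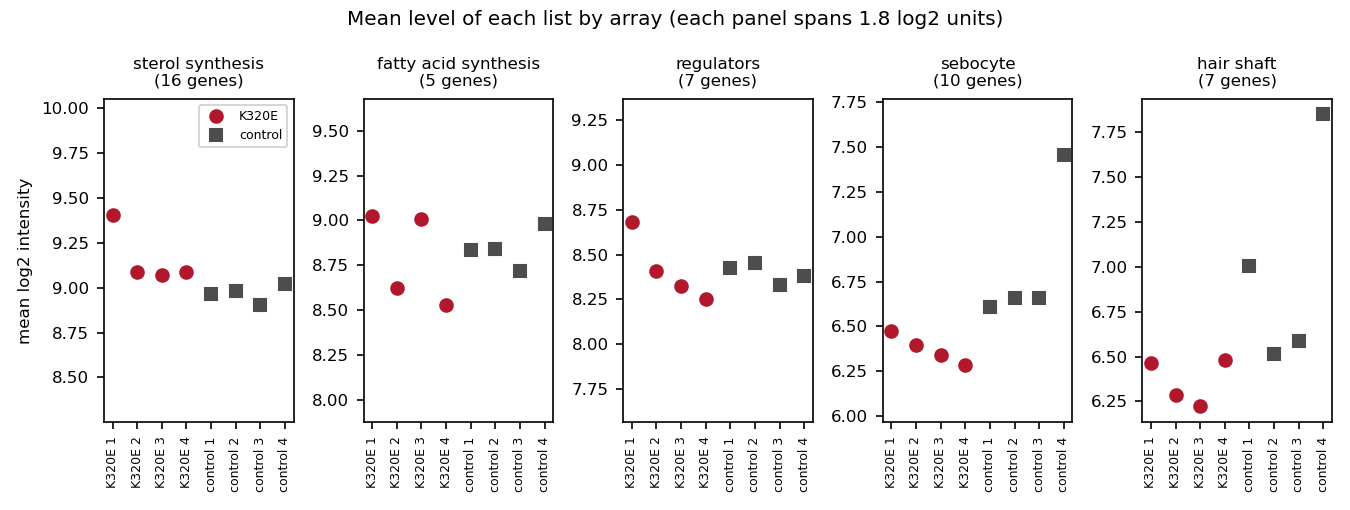
Each point is the mean log2 intensity of a list on 1 array, with K320E replicates 1 to 4 left of control replicates 1 to 4 in each panel, for sterol synthesis, fatty acid synthesis, regulators, sebocyte markers and hair shaft markers. The sterol means are above the controls in all 4 K320E arrays, those of fatty acid synthesis and regulators overlap, and control replicate 4 is the highest array for both marker lists.

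The 5 fatty acid genes had a median fold change of 0.04, and their mean level was 9.02, 8.62, 9.01 and 8.53 in K320E against 8.84, 8.84, 8.72 and 8.98 in controls. The controls lay inside the range of the K320E arrays. The 7 regulators had a median of -0.03 and means of 8.68, 8.41, 8.33 and 8.25 in K320E against 8.43, 8.46, 8.33 and 8.38 in controls. The difference between the 3 classes was not tested. Levels of hair shaft markers, of which 7 of 8 were measured and all 7 had lower means in K320E, ran in sum from 9.22 to 9.50 in K320E and from 9.58 to 11.19 in controls on the log2 scale. With these markers as a covariate the median fold change was 0.30 for the sterol genes and 0.05 for the fatty acid genes, and with the sebocyte markers 0.32 and -0.02. These fits have the limit given for Scd1.

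Among the regulators, the escort Scap and the retention protein Insig2 separated the genotypes in opposite directions, and neither passed the test. Scap measured 9.58, 8.99, 9.06 and 8.97 in K320E and 8.51, 8.70, 8.60 and 8.47 in controls. The 4 K320E arrays lay above all controls, and the fold change was 0.58 (SE 0.13, limma adjusted p = 0.092). Without K320E replicate 1 it was 0.44, and then passed the threshold (adjusted p = 0.049). The second probe set of Scap, which is dimmer, averaged 6.46 in K320E and 6.28 in controls, a difference of 0.17 in the same direction.

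Insig2 had 8.72, 8.95, 8.68 and 8.78 in K320E against 8.99, 9.31, 9.21 and 9.30 in controls. The highest K320E array lay just under the lowest control, and the fold change was -0.42 (SE 0.09, limma adjusted p = 0.075), within -0.49 to -0.38 whichever array was left out. Insig1, the paralog that SREBPs themselves activate, had 9.06, 8.52, 8.50 and 8.33 in K320E against 8.85, 8.95, 8.50 and 9.24 in controls. The groups overlapped, and the fold change was -0.28 (SE 0.18, limma adjusted p = 0.541). With the sebocyte marker covariate, added after the data were seen, the sign of Insig1 turned (0.04), with the limit given for Scd1.

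The windows of the Insig genes are shown because Insig1 is 1 of the 3 members with the element core and Insig2 had the lowest unadjusted p among the regulators. They lie at chr5:28071162-28071461 (plus strand) and chr1:121332540-121332839 (minus strand, the first of 3 windows listed for this gene), with capitals as above. Insig1 has the element core on the opposite strand, beginning 9 bases before the start, 1 CCAAT box, 3 GGGCGG boxes and 1 E-box. The Insig2 window shown has 3 CCAAT boxes and 0 of the other letters searched, and each of the other 2 windows of the gene has 1 GGGCGG box.
Insig1: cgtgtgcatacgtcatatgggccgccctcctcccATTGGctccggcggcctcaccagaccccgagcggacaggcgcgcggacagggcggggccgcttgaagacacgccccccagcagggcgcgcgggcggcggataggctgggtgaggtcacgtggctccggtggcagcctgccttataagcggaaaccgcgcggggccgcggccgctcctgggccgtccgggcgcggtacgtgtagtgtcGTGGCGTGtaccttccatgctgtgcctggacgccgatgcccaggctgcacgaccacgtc
Insig2: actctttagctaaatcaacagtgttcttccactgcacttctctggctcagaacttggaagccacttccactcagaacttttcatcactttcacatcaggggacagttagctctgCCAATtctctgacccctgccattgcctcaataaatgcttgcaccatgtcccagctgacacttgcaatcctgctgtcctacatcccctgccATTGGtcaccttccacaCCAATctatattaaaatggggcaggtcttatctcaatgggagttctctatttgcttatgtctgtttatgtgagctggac

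The SREBP genes themselves had positive fold changes below the threshold. Srebf2, whose product favours sterol genes, measured 9.16, 8.45, 8.33 and 8.33 in K320E and 8.38, 8.13, 8.12 and 8.03 in controls. K320E replicate 1 stood well above the other 7 arrays, and the fold change of 0.40 (SE 0.18, limma adjusted p = 0.337) was 0.20 without it. Srebf1, whose product favours fatty acid genes, had 7.36, 7.01, 6.98 and 6.89 in K320E against 7.17, 6.80, 6.88 and 6.81 in controls. The groups overlapped, with a fold change of 0.15 (SE 0.12).

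Mylip encodes a ubiquitin ligase of lipoprotein receptors that liver X receptors induce. It had 8.13, 8.13, 8.15 and 7.80 in K320E against 8.35, 8.20, 8.29 and 8.40 in controls. All K320E arrays lay below all controls, by a narrow margin, and the fold change was -0.26 (SE 0.09, limma adjusted p = 0.218). Stard4, a cytosolic sterol carrier, had 8.79, 8.80, 8.58 and 8.66 in K320E against 8.74, 9.09, 8.73 and 8.41 in controls. The K320E arrays lay within the control range, and the fold change was -0.03 (SE 0.13).

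**Figure D4:**
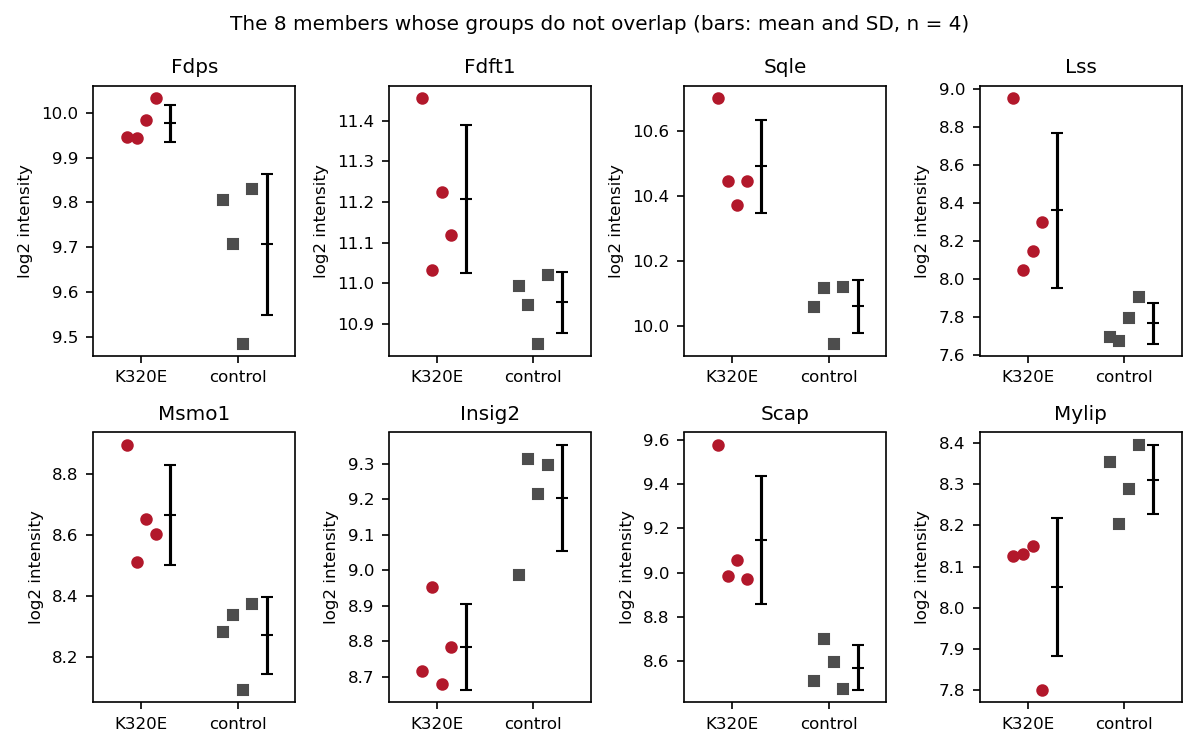
Log2 intensity of the 8 members whose groups do not overlap, with the 4 K320E arrays (circles, replicates 1 to 4 from left) left of the 4 control arrays (squares); bars give the mean and SD of each group. Fdps, Fdft1, Sqle, Lss, Msmo1 and Scap are higher in K320E and Insig2 and Mylip are lower, and K320E replicate 1 is the top K320E array for Fdft1, Sqle, Lss, Msmo1 and Scap.

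A wider list of 44 genes of SREBP processing, sterol sensing, efflux, esterification and lipid supply was compared in the same fit, and 36 were measured. Of these, 0 passed limma's adjusted threshold, 5 were higher and 4 lower at an unadjusted p under 0.05, beside 8.77% and 6.06% of all genes. The groups did not overlap for 3 that were higher and 1 that was lower, beside 5.5% and 3.75% of all genes. Of the 36, 23 lay in the third with the highest levels, where shares were greater. The median fold change of the 36 was 0.05. The 7 genes of SREBP processing and escort had a median of 0.08, the 4 of liver X receptors and efflux -0.01, and the 5 of acetyl-CoA and NADPH supply 0.10. The 5 of sterol degradation and sensing had 0.05, and the 4 of sterol esterification and transport 0.12. The 11 of fatty acid regulation, elongation, desaturation and triglyceride synthesis had 0.05. The highest fold change of the list was that of Mid1ip1, a partner of acetyl-CoA carboxylase, at 0.33 (SE 0.07, limma adjusted p = 0.092). It had 6.97, 6.96, 7.09 and 6.93 in K320E against 6.54, 6.83, 6.59 and 6.70 in controls, without overlap. Acss1, a mitochondrial acetyl-CoA synthetase, had the lowest at -0.51 (SE 0.15, limma adjusted p = 0.167). Its values were 6.93, 6.70, 7.05 and 7.52 in K320E against 7.61, 7.62, 7.60 and 7.42 in controls, and K320E replicate 4 lay among the controls. Without that array Acss1 was called (-0.67, limma adjusted p = 0.044). On the array, 3 probe sets name Mid1ip1 alone and 2 name Acss1 alone. The values given are those of the brightest of each, and the others are not reported here.

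Further genes of the wider list were picked with their values in view. The coat proteins Sec24c and Sec24d, parts of the vesicle coat that carries cargo out of the endoplasmic reticulum, had fold changes of 0.30 (SE 0.10) and 0.23 (SE 0.07), and their groups did not overlap. The proteases that cleave SREBPs, Mbtps1 and Mbtps2, had fold changes of -0.04 (SE 0.09) and -0.05 (SE 0.06). The efflux transporters pointed apart: Abca1 had a fold change of -0.38 (SE 0.12, limma adjusted p = 0.181) and Abcg1 one of 0.28 (SE 0.11, limma adjusted p = 0.294). The desaturase Fads1 had -0.23 (SE 0.07), with every K320E array below every control.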

How the data were processed

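Epidermal RNA was measured on 8 arrays. The deposited table holds log2 intensities of 33793 probe sets as the authors processed them (4.31 to 13.1, array medians 6.06 to 6.11); the log base was read from their range, with summarisation and normalisation not given in the sources used here. Per the labels' protocols, RNA was amplified with the Applause WT-Amp Plus ST kit and labelled with biotin. Precision is limited by the number of arrays.

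Names came from GEO's platform annotation: 23521 probe sets name 1 gene, 1814 several, and 8458 were unnamed here. The brightest single-gene probe set stood for each of 22180 genes. The genotypes were compared with limma 3.58.1 (R 4.3.3; lmFit and eBayes, genotype as the only term), two-sided, with Benjamini-Hochberg adjustment over all genes and a threshold of 0.05. The fit was tested on simulated data. Every member is named; of the wider list, called genes and otherwise the highest and the lowest fold change; of marker lists, the 2 most highly expressed genes. Members, lists and tests were chosen with earlier results of these data known. No list was given a test. Alternatives were quantile normalisation, median centring, mean over probe sets, every probe set, leaving out the dimmest 33.3% of genes, array weights, a robust prior with an intensity trend, the replicate block, a Y-linked covariate and leaving out each array. Added after the data were seen were covariates for sebocyte and hair shaft markers and leaving out control replicates 2 and 3 together. The means of both marker lists did not overlap between the genotypes, so the covariate fits cannot tell the markers apart from genotype.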

Additional observations from a re-analysis of the deposited data

Results flagged for a closer look

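In groups of 4 arrays, the highest or lowest array was compared with the rest by its gap relative to the range (Dixon's test). Of 62 groups tested (28 members and 3 class means, each in both genotypes), 7 exceeded its critical value, where chance gives about 1 in 20 for independent groups. These groups share arrays, and the class means are built from the members, so they are not independent. The share of all genes that exceed it was not taken. In 5 of the 7 the array was K320E replicate 1, as the highest. It stood at 10.98 for Hmgcs1 (the other K320E arrays 10.54 to 10.59), at 7.87 for Tm7sf2 (7.38 to 7.45), at 9.16 for Srebf2 (8.33 to 8.45) and at 9.58 for Scap (8.97 to 9.06). The mean of the 16 sterol genes was 9.40 in that array and 9.07 to 9.09 in the other K320E arrays. The same array was the highest of the 8 for 13 of the 16 sterol genes, 3 of the 5 fatty acid genes and 3 of the 7 regulators.

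Scd1 stood at 9.68 in control replicate 4, against 8.54 to 8.66 in the other controls. Mylip stood at 7.80 in K320E replicate 4, against 8.13 to 8.15 in the other K320E arrays.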

How the results depend on the processing

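Over 20 alternatives for each of the 28 members, 519 of 560 fold changes kept their sign and their side of the threshold, 16 lost a call (all of them Sqle), 1 gained one (Scap) and 24 changed sign, in genes with fold changes near 0 and in Insig1. Besides the reduced fits there were 12 alternatives, and Sqle passed under 4 of them (mean over probe sets, the filter on dim genes, the intensity trend and array weights); over the 12 its adjusted p ran from 0.035 to 0.259. The number of members called higher was 0 with quantile normalisation, median centring, every probe set, the replicate block, the Y-linked, sebocyte and hair covariates and without control replicates 2 and 3, and 0 to 1 over the reduced fits, the 1 being Scap. Over all genes, 152 higher and 43 lower calls became 84 and 30 with the replicate block, 108 and 25 with the Y-linked covariate, 222 and 66 with the filter on dim genes, 2 and 1 with the sebocyte covariate, and 14 and 7 with the hair covariate. Leaving out 1 array gave 44 to 147 higher and 9 to 33 lower calls, 0 to 1 lower calls in the wider list (Acss1, without K320E replicate 4), and sterol medians of 0.10 (without K320E replicate 1) to 0.28 (without control replicate 4). Deviations of same-numbered arrays from their group means had correlations of 0.05, -0.06, 0.08 and 0.14 for replicates 1 to 4. Those of unlike-numbered arrays ran from -0.15 to 0.13. Correlations over all genes cannot show whether the numbers pair the samples.

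Signs changed as follows. Dhcr7 had -0.026 with quantile normalisation and -0.072 with array weights, and Acaca had -0.0060 with quantile normalisation. With the sebocyte covariate Hsd17b7 had 0.10, Ebp -0.13, Dhcr7 -0.089, Acaca -0.019 and Insig1 0.044. With the hair covariate Hsd17b7 had 0.063, Ebp -0.12 and Dhcr7 -0.18. Without control replicates 2 and 3, Acaca had -0.044 and Stard4 0.13. Leaving out 1 array gave -0.047 to 0.15 for Mvk, -0.097 to 0.013 for Hsd17b7, -0.050 to 0.13 for Ebp, -0.081 to 0.085 for Dhcr7, -0.047 to 0.11 for Acaca and -0.14 to 0.082 for Stard4. The cause was not tested.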

Other observations

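Markers of further cell types were measured beside the lipid genes, and 0 of those named here were called by limma. All 8 skeletal muscle markers had higher means in K320E: Tnnt3 averaged 8.61 ± 0.95 in K320E and 7.58 ± 0.64 in controls, and Mylpf 8.43 ± 0.83 in K320E and 7.36 ± 0.78 in controls (each as mean ± SD of 4 arrays). K320E replicates 3 and 1 had the highest means of that list (8.07 and 7.57). Macrophage and neutrophil markers, 6 of 8 with higher means, averaged 6.57 to 6.76 in K320E arrays and 6.19 to 6.56 in control arrays. All 5 melanocyte markers had lower means in K320E, with Mlana at 10.35 ± 0.16 in K320E and 10.74 ± 0.20 in controls. Fibroblast markers (5 of 6 higher) and endothelial markers (4 of 5 higher) overlapped between the genotypes, as did the adipokine Retn, at 6.28 ± 0.56 in K320E and 6.38 ± 0.26 in controls. Of the hair shaft keratins, Krt34 averaged 7.31 ± 0.29 in K320E and 8.58 ± 1.07 in controls, and Krt35 7.42 ± 0.31 in K320E and 7.90 ± 0.56 in controls. Whether these levels have a part in the values of the lipid genes was not tested. The covariate fit with the hair shaft markers cannot tell them apart from genotype, because their means did not overlap.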
